A study of Mus musculus with 23 samples.

Results

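Arachidonic acid (AA), a polyunsaturated fatty acid that oxidises readily, was given to spleen CD8+ T cells of the genotype Lckcre-PLPP1fl/fl, called KO here, and these cells were compared with KO cells given no fatty acid. The comparison was defined by the names of the count columns: 4 libraries of KO with AA against 4 of untreated KO, of 23 libraries in the series, with 18015 of the 49492 listed genes expressed strongly enough to be tested. KO cells carry loxP sites in both copies of Plpp1, which encodes a membrane lipid phosphatase, together with a Cre recombinase driven by the Lck promoter, active in T cells. For reference, 3 other groups were used: PLPP1fl/fl cells without the Cre, called WT here, untreated and with AA (4 libraries each), and KO cells that received octadecenoic acid (OA, with a single double bond; 3 libraries). All groups share the floxed Plpp1 gene, and all RNA was polyadenylated RNA of splenic CD8+ T cells. The dose, the length of treatment, the age of the mice and whether libraries came from separate animals are not in the labels, so the p-values rest on a between-library spread that may be technical.

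Total counts ran from 39265131 to 48088112 in untreated KO and from 48288680 to 58878203 in KO with AA. The log2 levels of any pair of libraries correlated at 0.989 to 0.991 within untreated KO, at 0.992 to 0.993 within KO with AA and at 0.988 to 0.990 between the groups, across genes, which are not independent. The T cell marker Cd3e was at 180.2 ± 3.98 CPM in untreated KO and 164 ± 7.69 CPM with AA. Cd8a stood at 339 ± 6.18 CPM in untreated KO and 302 ± 15.5 CPM with AA, and Cd4 at 2.27 ± 0.24 and 2.26 ± 0.316 CPM. The targeted gene Plpp1 had 19, 19, 25 and 21 counts in the untreated and 23, 36, 29 and 36 in the AA libraries. In WT it had 32, 20, 17 and 32 counts untreated and 35, 35, 19 and 19 with AA, so the deletion is not visible in these counts. The level of Plpp1 is too low, and too exposed to reads of the overlapping Skiv2l2, to check the genotype. Genotype was bound up with the T cell receptor repertoire: the segment Trbv12-1 took 3.58% to 3.87% of all Trbv counts in untreated KO and 4% to 4.32% in KO with AA, but 81.6% to 84.2% in untreated WT and 85.2% to 85.6% in WT with AA. Replicate 4 of the untreated libraries stood apart for some predicted genes: Gm10800 was at 4.61, 10.9, 12.4 and 235 CPM in the untreated and 6.95, 9.59, 8.33 and 18.5 CPM in the AA libraries. The groups overlapped, and the fitted fall of 2.60 on the log2 scale became a value of 0.19 without that library.

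As background, cells take up free arachidonic acid and build it into membrane phospholipids through ACSL4, and its double bonds are a substrate for lipid peroxidation. Ferroptosis is the death that follows when such peroxides, fed by iron, outrun their removal by the glutathione peroxidase GPX4. Electrophilic products of lipid oxidation react with KEAP1, which otherwise marks the transcription factor NRF2 for degradation. Stabilised NRF2 pairs with small Maf proteins on a short DNA element and drives genes for glutathione, thioredoxin, quinone and haem metabolism, and the repressors BACH1 and BACH2 occupy the same element. Polyunsaturated fatty acids are also known to restrain the SREBP factors, which drive sterol and fatty acid synthesis, and to activate PPAR receptors, which drive fatty acid oxidation.

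With AA, 4973 genes (27.6% of those tested) changed by the quasi-likelihood test of edgeR, at a Benjamini-Hochberg adjusted p under 0.05 over all tested genes. Of these, 2201 were higher (12.2%) and 2772 lower (15.4%). Most changes were small: the median fold was 1.19 among the genes that rose and 1.19 among those that fell, and 85 genes rose and 98 fell by at least 2-fold. The 4 AA libraries lay wholly above the 4 untreated ones for 1877 genes (10.4%) and wholly below for 2493 (13.8%). The median log2 change of all tested genes was -0.01. Because these are bulk samples, a smaller share of some cells and less RNA per cell cannot be told apart. Levels are CPM (counts scaled to a common library total) over TMM-scaled library sizes, given as mean ± SD over 4 libraries (3 for OA), and log2 changes are given ± SE.

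**Figure D1:**
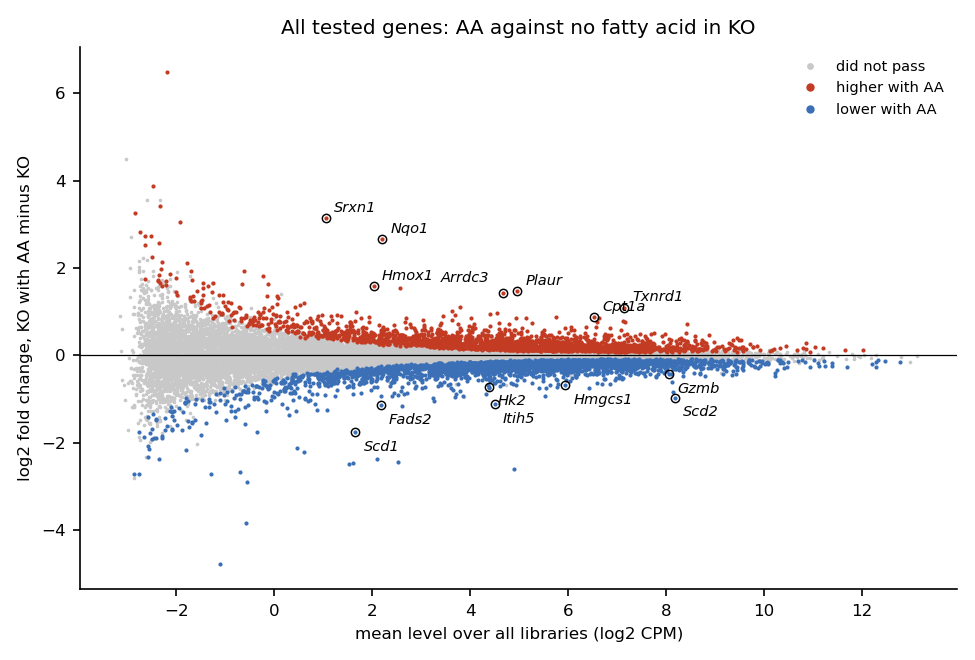
Change of every tested gene with AA in KO (log2 fold change, KO with AA minus KO, on the vertical axis) against its mean level over all libraries (log2 CPM, horizontal axis). Red points are the 2201 genes that rose, blue points the 2772 that fell and grey points those that did not pass. Srxn1 (3.15) and Nqo1 (2.66) stand farthest up among the circled, named genes, and Scd1 (-1.75) farthest down.

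Genes controlled by NRF2 held the 3 largest rises among the genes the naming rule admits, Srxn1, Nqo1 and Hmox1. That rule asked for no overlap between AA and untreated libraries, so for genes it named the lack of overlap is no separate support. Of 34 tested genes in a list of NRF2 targets and regulators, 21 rose and 2 fell, against 12.2% and 15.4% of all genes, and the list's median log2 change was 0.33. The printed sequences are RefSeq promoter windows (build GRCm38.p6, 250 bases before to 50 after the start of the gene) of the 3 listed genes that hold the element TGANTCAGC, the core bound by NRF2 with a small Maf protein, on either strand. They are shown because 2 of these genes rose and 1 did not, so that the same letters stand before genes of both kinds. The capitals mark the element.
Srxn1, chr2:152105274-152105573, plus strand: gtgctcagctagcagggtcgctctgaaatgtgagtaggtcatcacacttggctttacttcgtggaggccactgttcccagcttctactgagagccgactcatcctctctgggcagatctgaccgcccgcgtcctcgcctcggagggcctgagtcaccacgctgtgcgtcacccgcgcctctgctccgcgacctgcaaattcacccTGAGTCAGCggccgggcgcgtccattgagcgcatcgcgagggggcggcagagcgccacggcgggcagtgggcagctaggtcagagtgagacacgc
Osgin1, chr8:119436897-119437196, plus strand: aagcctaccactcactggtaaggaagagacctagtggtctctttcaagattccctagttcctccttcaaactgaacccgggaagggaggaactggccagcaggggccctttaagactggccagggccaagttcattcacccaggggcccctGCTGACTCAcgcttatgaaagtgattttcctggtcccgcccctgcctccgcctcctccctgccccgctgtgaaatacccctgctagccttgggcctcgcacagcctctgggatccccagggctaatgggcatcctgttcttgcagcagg
Gstp1, chr19:4037863-4038162, minus strand: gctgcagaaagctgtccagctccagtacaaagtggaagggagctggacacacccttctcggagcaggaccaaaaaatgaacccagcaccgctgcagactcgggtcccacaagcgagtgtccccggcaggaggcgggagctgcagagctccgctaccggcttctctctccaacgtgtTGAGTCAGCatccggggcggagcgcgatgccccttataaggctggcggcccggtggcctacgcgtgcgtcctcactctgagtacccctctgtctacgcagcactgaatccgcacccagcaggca
Windows were found for 28 of the 34 listed genes, and 3 of these (10.7%) held the element, as did 146 of 10804 tested genes with a window (1.35%). A match is a description of letters, not a binding site.

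Srxn1, whose product sulfiredoxin repairs over-oxidised peroxiredoxins, lies on chromosome 2 (GRCm38, 152105516 to 152111376). It stood at 0.629, 0.956, 0.476 and 0.715 CPM in the untreated libraries and at 5.32, 6.83, 5.86 and 6.5 CPM with AA. No AA library came near the untreated range, and the level was 8.85-fold higher (log2 3.15 ± 0.18, edgeR adjusted p = 6.64e-16). Nqo1, a quinone reductase on chromosome 8 (107388225 to 107403206), was at 2.31, 2.06, 2.29 and 2.09 CPM untreated and 12.9, 15.2, 14.3 and 12.9 CPM with AA. Its groups were likewise far apart, at 6.33-fold (log2 2.66 ± 0.12, edgeR adjusted p = 6.42e-19). Hmox1, the haem oxygenase that frees iron from haem, on chromosome 8 (75093621 to 75100589), was at 3.22, 2.96, 2.99 and 2.53 CPM untreated and 8.76, 9.14, 9.46 and 7.86 CPM with AA. The AA libraries stood far above the untreated ones, and the mean was 3.01-fold higher (log2 1.59 ± 0.13, edgeR adjusted p = 5.01e-12).

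Among enzymes of the thioredoxin and glutathione systems, Txnrd1, the cytosolic thioredoxin reductase, rose from 121, 128, 126 and 131 CPM to 269.8, 279, 265 and 271 CPM. The 2 sets of libraries were tight and separate, at 2.14-fold (edgeR adjusted p = 7.04e-24), and Eid3, a short gene that lies within Txnrd1 and could share its reads, rose 2.93-fold. Gclc, the catalytic subunit of the enzyme that makes the first step of glutathione, was at 45.8, 48.2, 45.4 and 44.4 CPM untreated and 89.2, 79.9, 87.1 and 84.6 CPM with AA, 1.85-fold higher (edgeR adjusted p = 1.22e-18) with no overlap. Its partner Gclm, the modifier subunit, rose 1.26-fold, from 21.6 ± 2.12 to 27.1 ± 1.88 CPM (edgeR adjusted p = 0.000118). Gsr, which reduces oxidised glutathione, rose 1.68-fold, from 22.9 ± 1.96 to 38.5 ± 1.68 CPM (edgeR adjusted p = 5.16e-13). Slc7a11, the cystine importer that feeds glutathione synthesis, had 26, 4, 16 and 12 counts untreated and 53, 58, 42 and 70 with AA. These are low counts, uneven among the untreated libraries, and the groups did not overlap (log2 1.63 ± 0.33, edgeR adjusted p = 0.000207).

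Of 19 tested thioredoxin and peroxiredoxin genes 4 rose and 4 fell, and of 20 genes of cystine import and glutathione 5 rose and 4 fell. The shares of all genes were 12.2% higher and 15.4% lower. Prdx1, an abundant peroxiredoxin, was at 103 ± 4.89 CPM untreated and 112 ± 9.6 CPM with AA (edgeR adjusted p = 0.108, overlapping, but 0.0322 without AA replicate 1 and 0.0203 with no filter), and Txn1, thioredoxin itself, at 27.6 ± 1.95 and 28.4 ± 0.753 CPM (adjusted p = 0.649, overlapping). Gpx1, the cytosolic glutathione peroxidase, fell 1.27-fold, from 78.7 ± 4.16 to 61.8 ± 3.26 CPM (edgeR adjusted p = 1.68e-07). Gstp1, whose promoter window is printed, was at 16.5 ± 0.546 and 16.8 ± 1.74 CPM (adjusted p = 0.789, overlapping). Osgin1, the other gene with a printed window, an oxidative stress gene, rose 2.57-fold from a low level, 0.524, 0.358, 0.411 and 0.46 CPM untreated to 0.937, 1.25, 1.09 and 1.22 CPM with AA, without overlap (edgeR adjusted p = 0.000139).

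Genes for the regulators of the element rose too. Mafg, a small Maf partner of NRF2, rose 1.95-fold (from 18.1 ± 1.24 to 35.3 ± 1.5 CPM, edgeR adjusted p = 4.99e-15). Bach1, the repressor that competes for the element and is itself inactivated by haem, rose 1.94-fold, from 16.2, 15.6, 14.4 and 15.4 CPM to 30.2, 29.9, 30.4 and 29.2 CPM, with no overlap. Bach2, its relative that holds T cells in a resting and memory state, rose 1.25-fold, from 78.6 ± 1.37 to 98.3 ± 2.8 CPM. Sqstm1, encoding p62, an autophagy receptor that binds KEAP1, rose 1.7-fold, from 119 ± 2.5 to 201 ± 3.85 CPM. The mRNAs of the sensor pair changed little: Nfe2l2, which encodes NRF2, rose 1.18-fold and Keap1 1.11-fold (adjusted p = 5.36e-05 and 0.00128). Abcc1, which exports glutathione conjugates, rose 1.39-fold, whereas Abcc4, another exporter, fell 1.14-fold (adjusted p = 8.01e-10 and 0.00331).

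**Figure D2:**
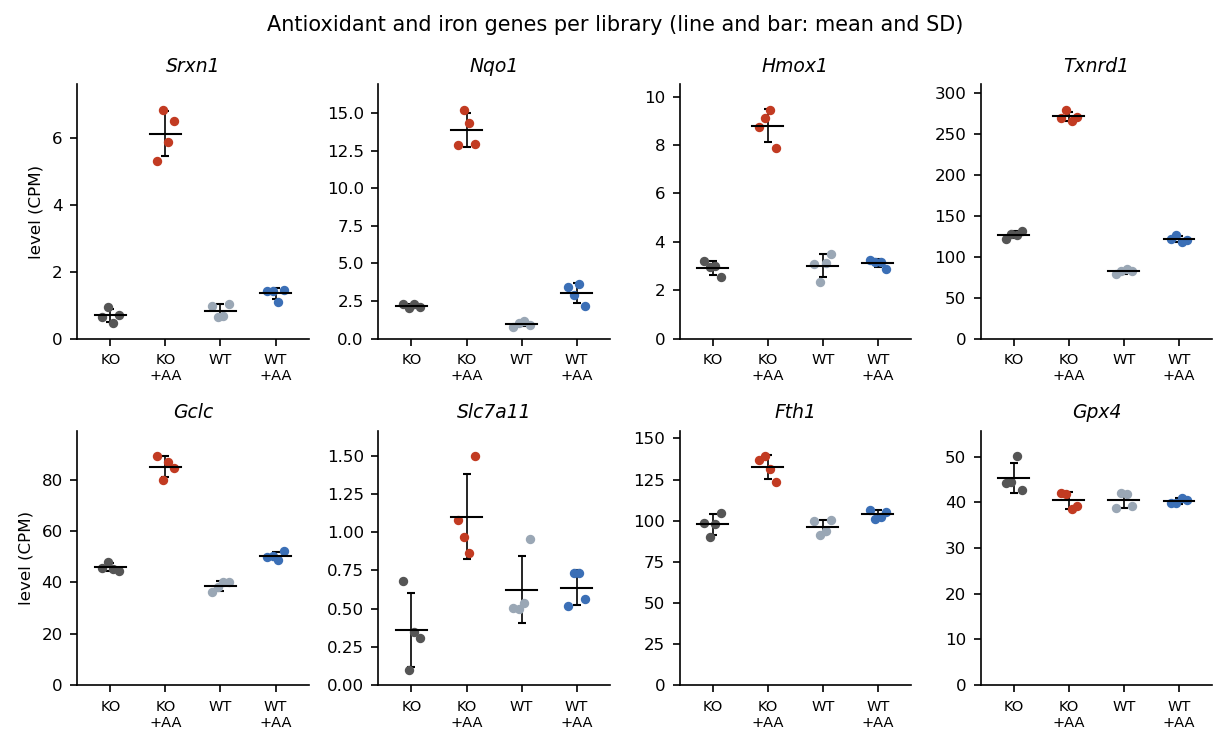
Level of 8 genes in each library (CPM, vertical axes from 0) in untreated KO, KO with AA, untreated WT and WT with AA (4 points each). Lines and bars are mean and SD. Srxn1, Nqo1, Hmox1, Txnrd1 and Gclc are highest in KO with AA, Slc7a11 is near the floor in every group, and Gpx4 differs little (45.3 CPM untreated and 40.4 CPM with AA in KO).

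Genes that act in ferroptosis moved in both directions. In a list of 22 tested ferroptosis suppressors 6 rose and 9 fell, and of 20 promoters of ferroptosis 3 rose and 6 fell. Of all genes 12.2% rose and 15.4% fell, so the rises among promoters were near the share of all genes. Gpx4, the peroxidase that clears lipid peroxides, was at 44.2, 44.4, 50.1 and 42.6 CPM untreated and 42.1, 41.8, 38.5 and 39.2 CPM with AA. The AA libraries lay below the untreated ones, 1.12-fold on average (edgeR adjusted p = 0.00663), and without untreated replicate 3 the adjusted p was 0.0704. Acsl4, the ligase that activates AA for phospholipid synthesis, fell 1.13-fold, from 77.2 ± 3.57 to 68.1 ± 2.69 CPM (edgeR adjusted p = 0.000206). Aifm2 (FSP1, which regenerates ubiquinol) was at 2.72 ± 0.277 and 2.64 ± 0.297 CPM (adjusted p = 0.89). Gch1, the first enzyme of tetrahydrobiopterin synthesis, rose 1.58-fold (from 1.34 ± 0.0796 to 2.11 ± 0.415 CPM, adjusted p = 0.0106), a call lost without AA replicate 3 (adjusted p 0.0553). Sat1, a polyamine acetylase known to promote ferroptosis, rose 1.3-fold, from 56.1 ± 2.33 to 73.1 ± 2.15 CPM (edgeR adjusted p = 2.25e-10). Ptgs2 and Chac1, widely used transcript markers of ferroptosis, did not pass: Ptgs2 was at 0.354 ± 0.119 and 0.458 ± 0.0664 CPM (adjusted p = 0.383) and Chac1 at 0.315 ± 0.0564 and 0.416 ± 0.0647 CPM (0.428), at counts of 10 to 30 for Ptgs2.

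Of 21 tested iron genes 6 rose and 4 fell (median log2 change 0.02), and without untreated replicate 2 the falls were 2. Among all genes 12.2% rose and 15.4% fell. The ferritin chains, which store iron, both rose: Ftl1 from 25.5, 23.1, 23.8 and 26.3 CPM to 47.4, 48.4, 44.2 and 38.7 CPM, 1.81-fold (edgeR adjusted p = 2.49e-14), and Fth1 1.36-fold, from 97.7 ± 6.13 to 133 ± 7.06 CPM. For both genes every AA library lay above every untreated one, and Ftl1 has near-identical pseudogenes with which reads can be shared. Tfrc, the transferrin receptor that imports iron, fell from 263, 264, 262 and 271 CPM to 207, 192, 201 and 199 CPM, with no overlap and 1.33-fold (edgeR adjusted p = 3.17e-13). Steap3, the reductase of the same import route, fell 2.93-fold from 0.654 ± 0.152 to 0.222 ± 0.0489 CPM (adjusted p = 0.000951). Slc40a1, the iron exporter ferroportin, rose from 0.102 ± 0.0415 to 0.33 ± 0.0962 CPM, both near the floor of these libraries (adjusted p = 0.00282).

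Genes of sterol synthesis and of fatty acid desaturation fell. Of 28 tested genes of cholesterol synthesis and uptake 21 fell and 2 rose (median log2 change -0.36), and of 16 of fatty acid synthesis and desaturation 9 fell and 1 rose (median -0.25), against 15.4% of all genes that fell. Hmgcs1, which makes the precursor of mevalonate, is the 1 member of 20 with a promoter window (5%) that holds the letters TCACNCCAC of the sterol regulatory element on either strand, as did 153 of 10804 tested genes with a window (1.42%). Its window is shown with the element in capitals.
Hmgcs1, chr13:119690101-119690400, plus strand: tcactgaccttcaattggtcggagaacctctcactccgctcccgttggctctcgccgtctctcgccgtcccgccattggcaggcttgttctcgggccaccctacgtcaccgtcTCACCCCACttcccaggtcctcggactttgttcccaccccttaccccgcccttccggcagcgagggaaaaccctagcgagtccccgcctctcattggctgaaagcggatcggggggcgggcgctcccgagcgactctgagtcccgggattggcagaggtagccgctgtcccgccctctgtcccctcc
Hmgcs1 stood at 93.3, 95.7, 91 and 95.1 CPM untreated and 57.8, 59, 60.2 and 57.9 CPM with AA. The groups were separate and 1.6-fold apart (edgeR adjusted p = 1.86e-17). Later steps of the pathway were lower too: Idi1 1.68-fold, Fdps 1.61-fold, Sqle 1.56-fold and Cyp51, which overlaps Akap9, 1.56-fold (adjusted p from 2.03e-17 to 7.51e-11). Srebf2, which encodes the sterol-responsive factor SREBP2, fell 1.28-fold and Insig1, its sterol-sensing retention factor and target, 1.38-fold. The related Insig2 rose 1.2-fold, from 6.15 ± 0.69 CPM untreated to 7.4 ± 0.722 CPM with AA (edgeR adjusted p = 0.0209, overlapping libraries). That call was lost without untreated replicate 2, untreated replicate 4 or AA replicate 4 (adjusted p 0.0954, 0.0741 and 0.0926).

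The stearoyl-CoA desaturases put the double bond into monounsaturated fatty acids. Scd1, on chromosome 19 (44394451 to 44407709), fell from 6.66, 5.69, 6.84 and 7.51 CPM to 1.83, 2.0, 2.14 and 1.92 CPM. All 4 AA libraries were far below the untreated ones, 3.37-fold (log2 -1.75 ± 0.12, edgeR adjusted p = 3.24e-14). Scd2, a second desaturase gene on chromosome 19, fell from 398, 422, 389 and 403 CPM to 210.4, 199.5, 207 and 208 CPM, again without overlap and 1.95-fold (edgeR adjusted p = 2.11e-22). Fads2, the desaturase at the start of the route that makes AA from linoleic acid, fell 2.19-fold, from 8.67, 7.98, 9.05 and 8.63 CPM to 4.24, 3.71, 3.68 and 4.08 CPM. Fads1, which acts later in that route, did not pass, at 17 ± 0.669 and 16 ± 2.3 CPM (adjusted p = 0.425). Fasn, fatty acid synthase, fell 1.4-fold and Srebf1, which encodes SREBP1, 1.48-fold, the latter from 43.4 ± 2.0 to 29.4 ± 1.76 CPM. Of 12 tested targets of the sterol receptor LXR 6 fell and 2 rose, against 15.4% and 12.2% of all genes. Abcg1 and Abca1, which export cholesterol, were 1.58-fold and 1.4-fold lower (edgeR adjusted p = 8.92e-12 and 2.92e-06). The lists share genes: Scd1 (log2 -1.75) gave the lowest value of the LXR, fatty acid synthesis and ferroptosis suppressor lists.

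Fatty acid use changed at single steps. Cpt1a, the gate for entry of fatty acids into mitochondria and a PPAR target, rose from 60.1, 59.1, 59 and 61.4 CPM to 109, 112, 111 and 109 CPM. The groups did not overlap, and the difference was 1.84-fold (log2 0.88 ± 0.03, edgeR adjusted p = 6.39e-22). Slc25a20, the carnitine carrier that acts next, rose 1.39-fold and Etfdh, which passes electrons of fatty acid oxidation to ubiquinone, 1.25-fold (adjusted p = 1.08e-05 and 2.06e-09). Over the list of 30 tested genes of fatty acid oxidation and PPAR targets 5 rose and 6 fell (median log2 change -0.03), or 3 fell without untreated replicate 3, near the shares of all genes. Dgat1, which makes triglyceride, rose 1.76-fold (from 7.24 ± 0.815 to 12.7 ± 0.738 CPM) and Plin2, which coats lipid droplets, 1.39-fold (from 7.73 ± 0.512 to 10.7 ± 1.08 CPM). Fabp5, a fatty acid binding protein, fell 1.49-fold, from 101 ± 4.56 to 67.9 ± 3.78 CPM. Of 18 tested genes that make or sense eicosanoids, the signalling lipids derived from AA, 3 rose and 1 fell, against 12.2% and 15.4% of all genes. Hpgds, a prostaglandin D synthase, was one that rose (1.64-fold, from 11.8 ± 0.925 to 19.4 ± 1.09 CPM, adjusted p = 2.12e-11).

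**Figure D3:**
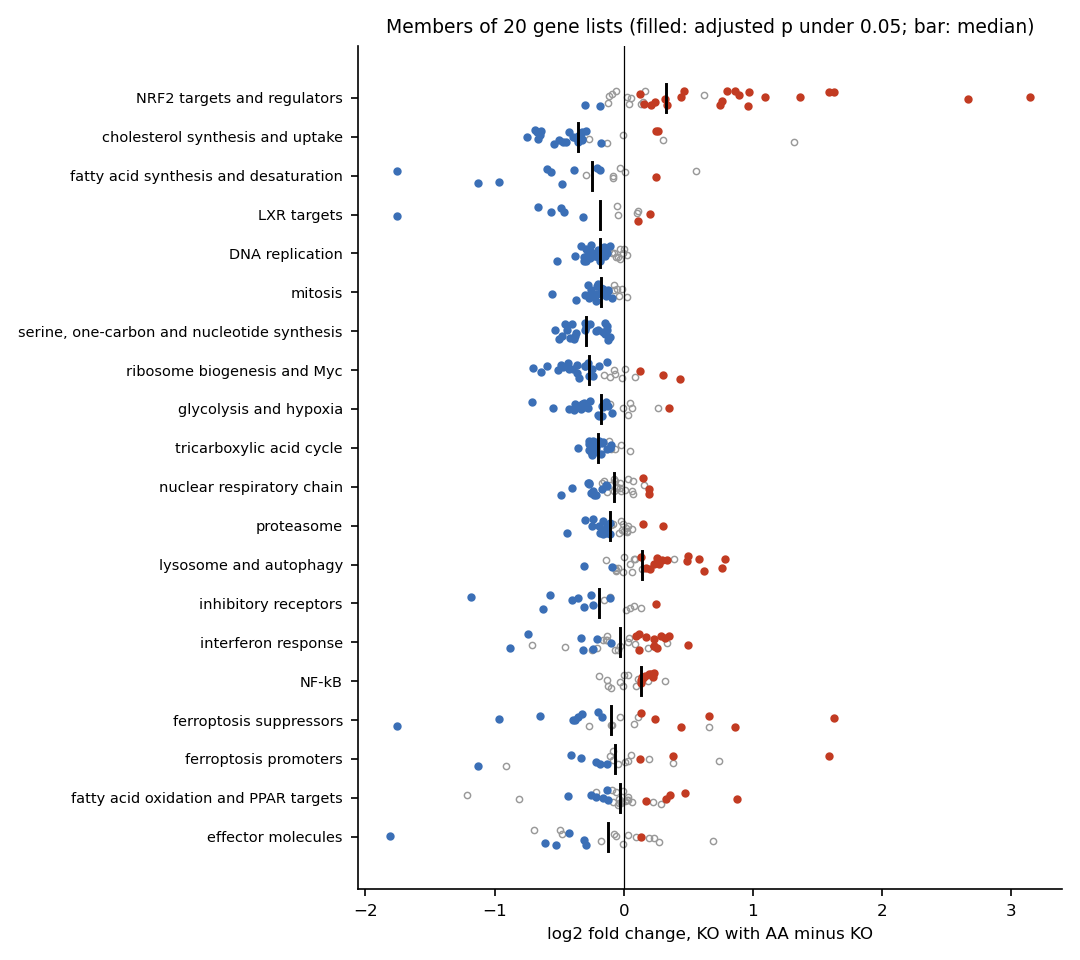
Log2 fold change with AA in KO (horizontal axis) of the tested members of 20 gene lists (rows). Filled points passed at an adjusted p under 0.05 (red higher, blue lower), open points did not, and bars are medians. All 24 members of the serine, one-carbon and nucleotide list lie below 0, and the NRF2 list reaches from -0.30 to 3.15.

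Genes for growth and division fell by small amounts and in large numbers. All 24 tested genes of serine, one-carbon and nucleotide synthesis fell (median log2 change -0.30), as did 26 of 37 of DNA replication (-0.18) and 23 of 29 of mitosis (-0.18), with no rise in these 3 lists. Of all genes 15.4% fell and 12.2% rose. Mthfd1, which interconverts one-carbon units on folate, went from 154, 167, 146 and 155 CPM to 103, 113, 108 and 106 CPM. No libraries overlapped, and the fall was 1.45-fold (edgeR adjusted p = 3.61e-13). Cad and Ctps, of pyrimidine synthesis, fell 1.42-fold and 1.4-fold, and Gart, of purine synthesis, 1.36-fold. Ccne1, the cyclin of entry into replication, fell 1.3-fold, Mcm2, a subunit of the replicative helicase, 1.24-fold, Pcna, the polymerase clamp, 1.21-fold and Rrm2, of ribonucleotide reductase, 1.23-fold. In mitosis Ube2c, an enzyme of the anaphase-promoting complex, fell 1.47-fold and the kinase Plk1 1.29-fold. Mki67, a proliferation marker, was at 5767, 5832, 5941 and 5718 CPM untreated and 5579, 4738, 5328 and 5436 CPM with AA, 1.1-fold lower (edgeR adjusted p = 0.00912). That call rests on AA replicate 2, without which the adjusted p was 0.143, and was also lost when only these 8 libraries were fitted (0.0858).

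The transcription factor Myc, which drives growth genes, fell. It was at 43.8, 47.3, 47.7 and 46.1 CPM untreated and 31.9, 34.3, 35.4 and 31.7 CPM with AA, with the 2 ranges apart and 1.39-fold lower (edgeR adjusted p = 6.11e-11). Its antagonists Mxd4 and Mxi1 rose 1.36-fold and 1.24-fold (adjusted p = 7.76e-11 and 1.11e-07). Of 30 tested genes of ribosome biogenesis and the Myc network 20 fell and 3 rose, the third of these Max, the common partner. Dkc1 and Nop56, of the particles that modify ribosomal RNA, fell 1.56-fold and 1.4-fold, Polr1b, of RNA polymerase I, 1.63-fold, and Srm, spermidine synthase, 1.89-fold, from 7.94, 9.05, 8.44 and 9.6 CPM to 4.5, 4.91, 4.71 and 4.36 CPM. The genes of the cytosolic ribosomal proteins themselves were even, with 6 of 39 up and 6 down, or 3 up without untreated replicate 2. With all libraries those counts were near the shares of all genes, 12.2% higher and 15.4% lower. The proteasome list had 15 of 31 lower and 2 higher (Psmb4 1.36-fold lower).

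Of 27 tested genes of glycolysis and hypoxia 19 fell and 1 rose (median log2 change -0.18), and of 24 of the tricarboxylic acid cycle 19 fell and none rose (-0.20). By comparison, 15.4% of all genes fell and 12.2% rose. Hk2, the hexokinase induced in activated T cells, fell from 32.3, 29.2, 29.5 and 29.4 CPM to 17.5, 18.4, 20.2 and 17.3 CPM, without overlap and 1.64-fold (edgeR adjusted p = 7.93e-14). Tpi1, which overlaps Spsb2, fell 1.46-fold, Ldha, which makes lactate, 1.25-fold, and Sdha, of succinate dehydrogenase, 1.18-fold. Nuclear genes of the respiratory chain fell in 13 of 35 cases and rose in 3, with Cycs, cytochrome c, 1.4-fold lower (79.2 ± 0.191 against 56.5 ± 1.68 CPM). Those 3 rises were lost without untreated replicate 2. Of 11 tested genes of the mitochondrial genome 0 passed by edgeR (median log2 change -0.05), 1 had an unadjusted p under 0.05, DESeq2 called 0 and limma-voom 1, and without untreated replicate 2 edgeR called 3 lower.

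Lysosome and autophagy genes rose, and the stress lists leaned lower, against 12.2% of all genes that rose and 15.4% that fell. The rises in the integrated stress response, endoplasmic reticulum and heat shock lists were near that share of all genes. Of 29 tested genes of lysosome and autophagy 14 rose and 2 fell (median log2 change 0.14). Ulk1, the kinase that starts autophagy, was at 16.8, 17.3, 16.9 and 18 CPM untreated and 26.4, 24.9, 27.3 and 24.6 CPM with AA, 1.49-fold higher with separate groups (edgeR adjusted p = 6.22e-11). Gabarapl1, of the autophagosome membrane, rose 1.54-fold, Mcoln1, a lysosomal calcium channel, 1.41-fold and Ctsl, a lysosomal protease, 1.4-fold. In the integrated stress response 4 of 30 rose and 12 fell: Ddit3 (CHOP, which overlaps Mars) and Trib3, both induced late in that response, rose 1.36-fold and 1.5-fold, Asns, asparagine synthetase, fell 1.28-fold, and Atf4, the central factor, was at 98 ± 4.66 and 104 ± 4.99 CPM (adjusted p = 0.0997). Among 22 genes of the endoplasmic reticulum 3 rose and 9 fell, with the sensor Ern1 and its target Xbp1 1.35-fold and 1.25-fold higher and the folding enzyme Pdia6 1.24-fold lower. Of 19 heat shock genes 3 rose and 6 fell, Hspd1, a mitochondrial chaperonin, by 1.31-fold. In the BCL2 family 2 of 22 rose and 5 fell, near the 12.2% and 15.4% of all genes. The death-promoting Bcl2l11 (BIM) rose 1.44-fold, from 68, 65.2, 66.9 and 62.4 CPM to 93.5, 98, 95.4 and 90.4 CPM. The protective Bcl2 moved the other way, 1.22-fold lower, and neither gene's groups overlapped (edgeR adjusted p = 8.83e-14 and 2.01e-08).

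Of 20 tested effector molecules of T cells 6 fell and 1 rose, against 15.4% and 12.2% of all genes. Gzmb, granzyme B, was at 408, 417, 433 and 431 CPM untreated and 326, 317, 315 and 302 CPM with AA. The AA libraries all lay below the untreated ones, 1.34-fold (edgeR adjusted p = 3.41e-13). Prf1, perforin, fell 1.52-fold, Xcl1, a chemokine for dendritic cells, 1.44-fold, and Csf2 fell from 0.384 ± 0.145 to 0.105 ± 0.0812 CPM. Ifng, interferon gamma, had low levels throughout, 0.422 ± 0.124 and 0.516 ± 0.0965 CPM, and did not pass (adjusted p = 0.69). The factors of the effector program Tbx21 (T-bet) and Eomes fell 1.5-fold and 1.5-fold, Tbx21 from 25.6, 25, 26.1 and 26 CPM to 16.1, 18.2, 16.9 and 17.5 CPM and Eomes from 39.6 ± 1.25 to 26.5 ± 1.16 CPM, each without overlap. Hic1, a zinc finger repressor, fell 1.92-fold, from 11.8 ± 0.625 to 6.16 ± 0.75 CPM. Zbtb32 and Batf3, factors of activated lymphocytes, fell 1.9-fold and 1.86-fold, and Egr3 and Nr4a2, induced through the T cell receptor, 1.81-fold and 1.36-fold. In the list of immediate early genes 9 of 22 fell (5 without untreated replicate 1) and 2 rose, Klf6 being higher by 1.35-fold. Tox, a factor of exhausted cells, was at 9.28 ± 0.896 and 7.88 ± 0.432 CPM and Tcf7, a factor of memory and naive cells, at 606 ± 26.9 and 644 ± 17.9 CPM. Both passed narrowly, with overlapping libraries (adjusted p = 0.0199 and 0.0432), and lost the call in 4 and 7 of 16 alternatives.

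Inhibitory receptors fell in 9 of 16 cases and rose in 1 (median log2 change -0.20), against 15.4% and 12.2% of all genes. Pdcd1, which encodes PD-1, was at 13.3, 13, 12.3 and 12.6 CPM untreated and 11.8, 12.5, 11.8 and 9.94 CPM with AA. Its libraries overlapped and it did not pass (log2 -0.15 ± 0.06, unadjusted 95% interval -0.28 to -0.02, edgeR adjusted p = 0.0791). Without AA replicate 2 it passed, at an adjusted p of 0.0469. Cd160 fell 1.54-fold, from 18.8 ± 1.05 to 12.2 ± 0.807 CPM, Entpd1, which breaks down extracellular ATP, 1.49-fold, and Lag3 1.18-fold (adjusted p = 2.55e-11, 1.05e-05 and 0.00496). Cd274, which encodes the PD-1 ligand PD-L1, was the member that rose, 1.19-fold, from 75.8 ± 4.51 to 90 ± 6.6 CPM, and Ctla4 was at 514 ± 17 and 519 ± 25.3 CPM (adjusted p = 0.796). Receptor components were slightly lower: Cd8b1 fell 1.22-fold and Cd8a 1.12-fold, with 4 of 7 CD8 T cell markers lower and none higher. Lcp2 (SLP-76), an adaptor of receptor signalling, fell 1.22-fold, in a list of 18 where 10 fell (6 when only these 8 libraries were fitted) and 2 rose. Il2rb, a chain of the receptors for IL-2 and IL-15, fell 1.23-fold, while Tnfrsf18 (GITR) rose 1.29-fold. Cish, which is induced by such cytokines and dampens them, rose 1.26-fold. Ccr9, a gut homing receptor, rose 1.5-fold (from 2.56 ± 0.513 to 3.84 ± 0.137 CPM).

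Interferon genes moved in both directions, with the share that fell near the 15.4% of all genes and the rises above their 12.2%. Of 35 tested, 12 rose and 7 fell: the GTPases Irgm1 and Igtp rose 1.41-fold and 1.24-fold, Irgm1 from 121, 115, 117 and 122 CPM to 172, 169.9, 164 and 164 CPM, whereas the antiviral genes Mx1 and Cmpk2 fell 1.84-fold and 1.68-fold, Mx1 from 9.59, 8.55, 9.77 and 8.71 CPM to 4.54, 4.88, 5.57 and 4.87 CPM. For each of these 4 genes the libraries of the 2 groups were apart. Of 21 tested genes of the NF-kB pathway 9 rose and none fell by edgeR, as Nfkb2 (1.17-fold) and Birc2 (1.18-fold) show.

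Several of the largest changes belonged to no list. Plaur, the urokinase receptor, was at 7.6, 5.5, 7.62 and 7.15 CPM untreated and 18.5, 20.8, 18.9 and 19.2 CPM with AA, 2.78-fold higher (edgeR adjusted p = 1.86e-17). Arrdc3, an arrestin-domain protein that brings receptors to degradation, rose from 19.8, 20.9, 21.3 and 22.3 CPM to 57.4, 56.5, 57.9 and 55.8 CPM, 2.7-fold (edgeR adjusted p = 6.39e-22). Both genes had untreated and AA libraries far apart, and a lack of overlap was required by the naming rule. Ldlrad4 and Pmepa1, related inhibitors of TGF-beta signalling, rose 2.15-fold and 1.91-fold, and Tmem140, Blcap, Sh2d4b and Ttc39c between 1.88 and 2.02-fold. Among those that fell, Itih5, an inhibitor heavy chain that binds hyaluronan, went from 30.9, 32.8, 31.3 and 35.3 CPM to 15.4, 14.6, 14.7 and 15.6 CPM, 2.16-fold lower (edgeR adjusted p = 3.96e-17). Arl4d, of the ARF family, and Adap1 fell 2.06-fold and 1.97-fold, and Slamf7, a receptor of cytotoxic lymphocytes, 1.92-fold. Ggt1, which breaks down extracellular glutathione, fell 1.9-fold, and Phf11a and Podnl1 1.87 and 1.85-fold.

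The summed level of 4 listed dendritic cell genes was 3.18 to 4.48 CPM untreated and 3.002 to 4.16 CPM with AA, that of 5 macrophage genes 2.97 to 3.86 and 2.77 to 3.97 CPM, and that of 2 B cell genes 3.53 to 4.66 and 3.54 to 4.71 CPM. Of the dendritic cell genes 2 rose and 1 fell, against 12.2% and 15.4% of all genes, but the rises were lost in some alternatives (none by limma-voom). The stroma list had a sum of 91.7 to 99.8 CPM untreated and 87.9 to 93.2 CPM with AA, nearly all of it Pecam1, an adhesion gene that leukocytes also express, while Col1a1 was at 0.224 ± 0.0719 and 0.233 ± 0.109 CPM. Of 3 platelet genes 2 rose and 0 fell, beside the same shares of all genes. The sum of these 3 was 3.30 to 4.43 CPM untreated and 5.63 to 7.35 CPM with AA. Itga2b made up 3.43 ± 0.382 and 5.31 ± 0.752 CPM of it (edgeR adjusted p = 3.11e-05). Itgax, a dendritic cell marker that T cells can also express, fell 3.36-fold, from 1.15 ± 0.276 to 0.34 ± 0.0619 CPM, and Cd79a, of B cells, was at 1.49 ± 0.132 and 1.95 ± 0.261 CPM (adjusted p = 0.0406, a call lost in 7 of 16 alternatives, with an adjusted p up to 0.145). The sum of 2 natural killer cell genes was 38.3 to 41.4 CPM untreated and 25.5 to 28.3 CPM with AA, and Eomes, which is also a T cell gene, is the member that fell. The part of such cells in the results was not tested.

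The AA response in KO was set against that in WT by testing the difference of the 2 effects in the same fit. AA changed 75 genes in WT (0.416%), 29 higher (0.161%) and 46 lower (0.255%), and the effect differed between genotypes for 2513 genes (13.9%), with 1075 in which it was larger (5.97%) and 1438 in which it was lower (7.98%) in KO. Larger and lower refer to the signed log2 effect, so such a difference can also come from a fall or a rise in WT. Which direction held more genes depended on the scaling and on the library left out. Since KO and WT also differ in receptor repertoire, genotype and repertoire cannot be told apart. In the NRF2 list 16 of 34 members had a larger effect in KO and 1 a lower one. Hmox1 stood at 3.08, 2.35, 3.13 and 3.5 CPM in untreated WT and 3.27, 3.16, 3.17 and 2.86 CPM in WT with AA. These ranges overlap, unlike those of KO, and the effect was larger in KO (log2 difference 1.53, edgeR adjusted p = 3.77e-07). Srxn1 was at 0.834 ± 0.201 and 1.35 ± 0.166 CPM in WT, a difference of effects of 2.44 (adjusted p = 8.57e-08). Nqo1 rose in WT too, from 0.974 ± 0.156 to 3.03 ± 0.638 CPM (log2 1.63, edgeR adjusted p = 8.03e-09), and its effect in KO was larger by 1.04 (adjusted p = 0.000315). Txnrd1 and Gclc likewise rose in WT (log2 0.56 and 0.38) and by more in KO, by 0.53 and 0.51.

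**Figure D4:**
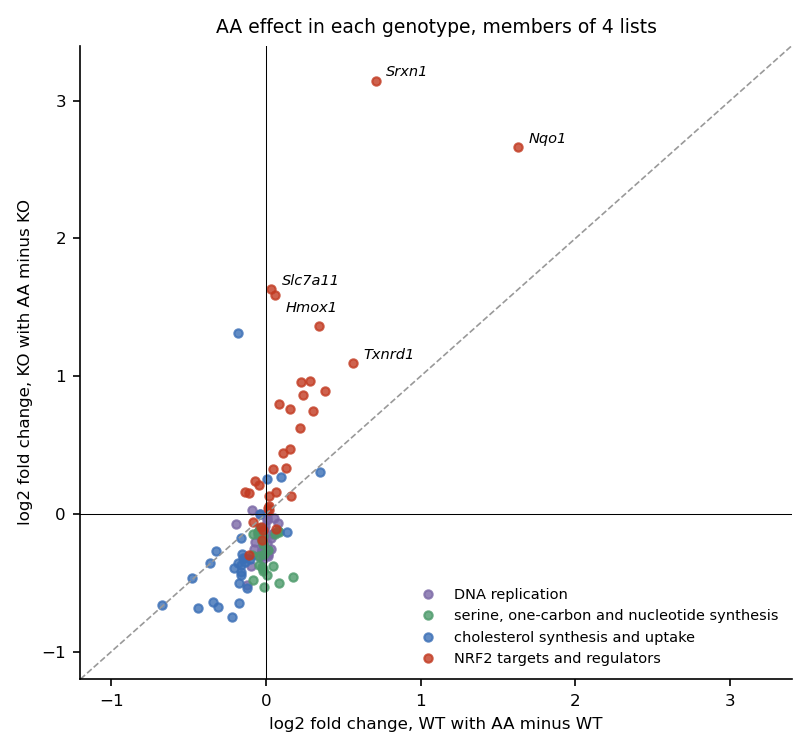
AA effect in KO (log2 fold change, vertical axis) against AA effect in WT (horizontal axis) for the tested members of 4 gene lists. The dashed line marks equal effects. Srxn1, Nqo1, Slc7a11 and Hmox1 lie above it, and most replication and nucleotide genes lie near 0 in WT and below 0 in KO.

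Sterol genes fell in both genotypes. In the cholesterol list 8 of 28 members fell in WT and 11 had a lower effect in KO, against 0.255% and 7.98% of all genes. For Insig1 (14.8 ± 0.619 to 10.6 ± 0.743 CPM in WT) the effects differed by 0.01 (edgeR adjusted p = 0.945). A p that misses the threshold does not show that the effects are alike. For Scd1, at 4.05 ± 0.373 CPM in untreated WT and 2.72 ± 0.365 CPM in WT with AA, the effect in KO was lower (log2 difference -1.19, edgeR adjusted p = 2.86e-06). In the replication, mitosis, nucleotide, glycolysis and tricarboxylic acid lists, 0 members passed in WT by edgeR, DESeq2 or limma-voom, and 2, 2, 2, 6 and 3 had an unadjusted p under 0.05 by edgeR. Of these lists, in the same order, 18 of 37, 17 of 29, 19 of 24, 13 of 27 and 10 of 24 had a lower effect in KO. Other large differences were those of Plaur (1.34), Lrrc8dos (1.05, a gene that overlaps Lrrc8d on the other strand), Ldlrad4 (1.02), Arrdc3 (0.96) and Ninj1 (0.93), a membrane protein of cell rupture. In the other direction stood Srm (-1.13), Egr3 (-0.96), Bspry (-0.96), Tex15 (-0.89) and Hcn3 (-0.87).

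AA was also compared with OA within KO, which asks how much of the change is shared by a fatty acid with a single double bond. The 2 effects share the untreated libraries, so the direct test between KO with AA and KO with OA is given. It called 2528 genes (14%), 1213 higher with AA (6.73%) and 1315 lower (7.3%). Against untreated KO, OA changed 4183 genes (23.2%). In the NRF2 list 18 of 34 members were higher with AA than with OA and none lower. Hmox1 was at 3.09, 3.9 and 2.21 CPM with OA, a spread that takes in the untreated libraries, and was higher with AA (by log2 1.51, edgeR adjusted p = 5.06e-10). Srxn1 was at 1.6, 1.55 and 2.01 CPM and Nqo1 at 4.59, 5.53 and 5.03 CPM with OA. With OA both were above untreated KO and higher again with AA, by 1.84 and 1.46 on the log2 scale (adjusted p = 9.12e-10 and 1.48e-11). Osgin1, at 0.949 ± 0.248 CPM with OA, did not differ past the threshold between the fatty acids (adjusted p = 0.625).

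Of 30 tested genes of fatty acid oxidation and PPAR targets 8 were lower with AA than with OA and none higher, against 7.3% and 6.73% of all genes. Cpt1a was at 152, 149.5 and 147 CPM with OA, with all 3 libraries above all AA libraries (log2 -0.44 for AA minus OA, edgeR adjusted p = 1.82e-12). Plin2 was at 20.8, 23.3 and 21.7 CPM with OA, again above every AA library (log2 -1.03, edgeR adjusted p = 3.07e-11). Hpgds was at 25.9 ± 1.26 CPM with OA (log2 -0.42). Scd2 was lower with OA than with AA, at 166 ± 5.69 CPM with OA (log2 0.31, adjusted p = 7.90e-08), while Scd1, at 1.64 ± 0.123 CPM, did not pass (adjusted p = 0.25). Fasn, at 78.6 ± 2.39 CPM with OA, was lower with AA (log2 -0.36, adjusted p = 3.44e-07).

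**Figure D5:**
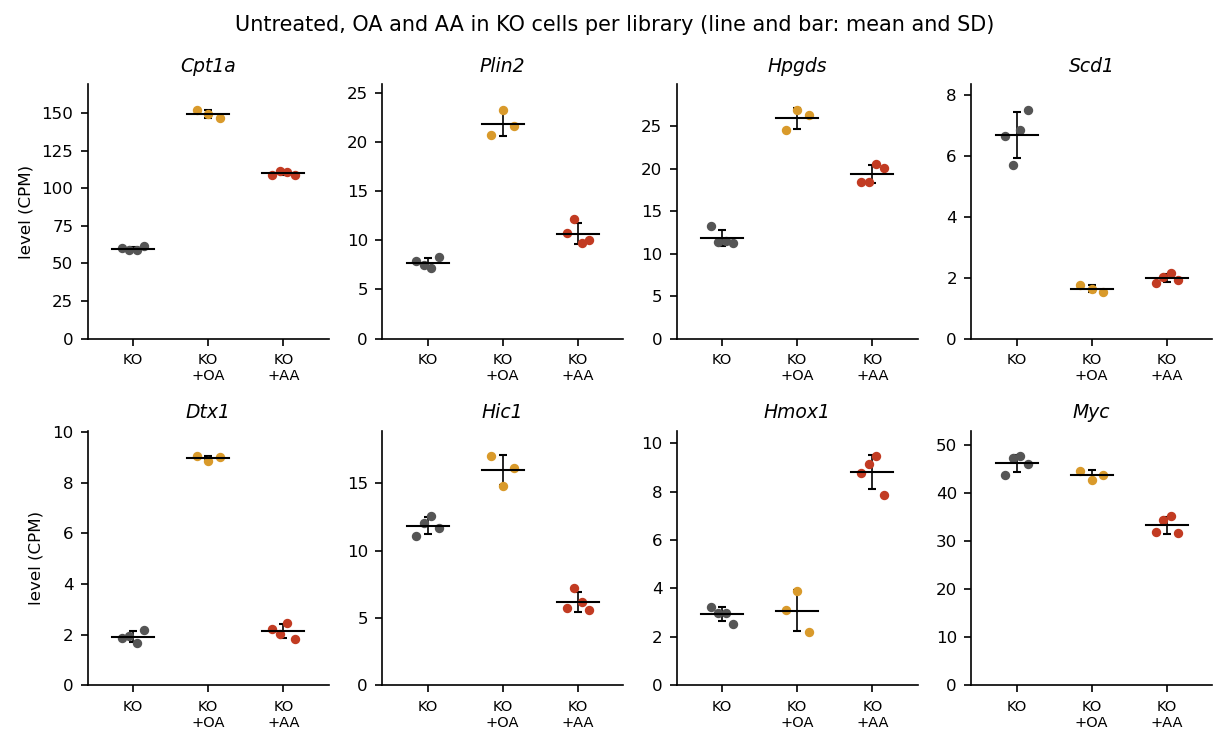
Level of 8 genes (CPM, vertical axes from 0) in untreated KO (4 libraries), KO with OA (3) and KO with AA (4). Lines and bars are mean and SD. Cpt1a, Plin2 and Hpgds are highest with OA, Dtx1 is at 8.99 CPM with OA and 2.13 CPM with AA, Hmox1 is raised with AA, and Hic1 is highest with OA and lowest with AA.

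Mitotic genes were lower with AA than with OA in 19 of 29 cases, and replication genes in 11 of 37, against 7.3% of all genes. With OA against untreated KO, 6 of 29 mitotic and 24 of 37 replication genes fell. So did 19 of 24 nucleotide, 18 of 28 cholesterol and 19 of 30 ribosome biogenesis genes. Falls were also called for 13 of 27 glycolysis genes, 13 of 24 tricarboxylic acid genes and 11 of 16 inhibitory receptors. Each of these lists had 0 to 3 rises with OA, and of all genes 12.7% fell and 10.5% rose. Myc was at 44.7, 42.7 and 43.8 CPM with OA, near the untreated level, and lower with AA (log2 -0.39, edgeR adjusted p = 9.35e-08). Tbx21 was at 24.1 ± 0.636 CPM with OA and lower with AA (log2 -0.49, adjusted p = 1.49e-08), whereas Eomes, at 26.6 ± 0.785 CPM with OA, did not pass between the fatty acids (adjusted p = 0.966). Bcl2 was at 184 ± 0.87 CPM with OA and lower with AA (log2 -0.28). Hic1 showed opposite movements, at 17, 14.8 and 16.2 CPM with OA, above untreated, and below untreated with AA (log2 -1.37 for AA minus OA, edgeR adjusted p = 6.26e-16). Dtx1 and Dtx4, ubiquitin ligases of the Notch pathway, were at 8.99 ± 0.0927 and 11.4 ± 0.867 CPM with OA, against 2.13 ± 0.271 and 4.57 ± 0.0897 CPM with AA and 1.91 ± 0.218 and 3.31 ± 0.526 CPM untreated. The direct log2 differences for these ligases were -2.08 and -1.32 (edgeR adjusted p = 1.09e-16 and 4.08e-14). Bzrap1 (-1.26), Iigp1 (-0.72), Fam102b (-0.75) and Xrcc6bp1 (-0.79) were also lower with AA than with OA. Between AA and untreated, Bzrap1 did not pass, and Fam102b and Xrcc6bp1 were lower with AA. Iigp1 was higher with AA than untreated, a call lost in 2 of 16 alternatives. Higher with AA than with OA were Slc6a19, a transporter of neutral amino acids (1.44; 1.15 ± 0.296 CPM with OA, 1.71 ± 0.483 untreated and 3.12 ± 0.396 with AA), and Bst1 (1.03), Trat1 (1.10) and Sox13 (1.09), the last 3 of which did not pass between AA and untreated, although Trat1 passed in 4 of 16 alternatives.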

How the data were processed

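Stranded mRNA libraries were prepared from TRIzol-extracted RNA, per the labels' protocols. Trimmomatic 0.36, featureCounts of Subread 1.5.1 and the build GRCm38 are named in the submitters' processing notes. Aligner and counting strand: not given in the sources used here. As deposited by the authors, the values are raw counts per gene and library. Of the counts from 1 to 19, 66.5% to 70.7% were even in every library, an excess of even values. Its cause was not tested, and low counts may hold less evidence than their size implies. All 23 libraries were fitted with 1 mean per group in edgeR 4.0.16 (R 4.3.3; quasi-likelihood test, TMM scaling), after filterByExpr with a minimum count of 10 and a minimum total of 15, and p-values were adjusted by Benjamini-Hochberg with a threshold of 0.05. Alternatives were DESeq2 1.42.0, limma 3.58.1 (voom), other scalings and filters, only the compared groups, a replicate block and leaving out each library. The fit was tested on simulated data, drawn without that excess of even counts. Genes named are the 15 with the largest change in each direction without overlap, the 8 for each other contrast, and up to 6 per list by adjusted p; others named, such as Gm10800 and genes that did not pass, were chosen after their values were seen. The comparison, the lists and the alternatives were chosen with earlier results of these data known. Some genes are in more than 1 list, so the list counts are not independent. Reads of overlapping genes cannot be told apart. Promoter windows are RefSeq's. Counting error limits genes with low counts.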

Additional observations from a re-analysis of the deposited data

Results flagged for a closer look

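In 21 of 334 groups of 4 libraries (6.29%, where chance gives about 5%), the highest or lowest library lay farther from the others than Dixon's 95% limit allows. In untreated KO the library that stood above the rest was found for Slc25a20 (replicate 4, 9.68 CPM), Dgat1 (replicate 4, 8.45 CPM), Hpgds (replicate 1, 13.2 CPM), Hk2 (replicate 1, 32.3 CPM), Fam102b (replicate 1, 21.0 CPM) and Gm10800 (replicate 4, 235 CPM). In untreated KO the library that stood below the rest was found for Abcc4 (replicate 2, 23.8 CPM) and Fabp5 (replicate 1, 94.1 CPM). In KO with AA the library that stood above the rest was found for Idi1 (replicate 3, 44.8 CPM), Sdha (replicate 2, 244 CPM), Ctsl (replicate 2, 11.2 CPM), Cish (replicate 3, 11.1 CPM), Klf6 (replicate 1, 90.0 CPM), Arl4d (replicate 4, 9.21 CPM), Itgax (replicate 3, 0.432 CPM) and Cd79a (replicate 1, 2.34 CPM). In KO with AA the library that stood below the rest was found for Tox (replicate 4, 7.24 CPM), Hcn3 (replicate 3, 1.09 CPM), Sox13 (replicate 3, 0.267 CPM) and Iigp1 (replicate 2, 113 CPM). The total count of replicate 2 of KO with AA, 58878203, also stood above the other 3.

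The effect of AA differed between KO and WT for 121 of the 166 named genes by edgeR's test of the difference at an adjusted p under 0.05. Over all tested genes the share was 13.9%. Many named genes were picked for a large change in KO or a large difference between genotypes, so a higher share was built in. For 54 of the named genes the signed effect of AA in KO was above that in WT, and the values are log2 effects in KO minus those in WT. A value above 0 can also come from a fall in WT. The effect of AA on Bzrap1 in KO, for example, ran only from -0.061 to 0.036 across alternatives. The difference was farthest above 0 for Srxn1 (2.44), Slc7a11 (1.60), Hmox1 (1.53), Plaur (1.34), Lrrc8dos (1.05), Nqo1 (1.04), Ldlrad4 (1.02), Arrdc3 (0.96) and Ninj1 (0.93). Next in size came Blcap (0.90), Pmepa1 (0.89), Sh2d4b (0.87), Eid3 (0.76), Ccr9 (0.75), Slc6a19 (0.74), Tmem140 (0.73), Bach1 (0.73) and Mafg (0.68). Smaller differences were those of Dgat1 (0.65), Hpgds (0.62), Ftl1 (0.62), Sqstm1 (0.61), Dtx4 (0.58), Ttc39c (0.57), Cpt1a (0.54), Txnrd1 (0.53) and Gclc (0.51). After these followed Irgm1 (0.47), Ulk1 (0.46), Gsr (0.44), Itga2b (0.44), Plin2 (0.43), Gabarapl1 (0.42), Bcl2l11 (0.41), Cish (0.41) and Ddit3 (0.41). A further group was Sat1 (0.39), Mcoln1 (0.37), Mxd4 (0.37), Ctsl (0.34), Tnfrsf18 (0.34), Fth1 (0.33), Abcc1 (0.32), Nfe2l2 (0.31) and Cd274 (0.29). The remaining values above 0 were those of Ern1 (0.29), Igtp (0.29), Klf6 (0.28), Bach2 (0.28), Mxi1 (0.27), Etfdh (0.24), Bzrap1 (0.23), Birc2 (0.23) and Nfkb2 (0.17).

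For 67 genes the effect in KO was below that in WT. The difference was farthest below 0 for Itgax (-1.46), Scd1 (-1.19), Srm (-1.13), Egr3 (-0.96), Bspry (-0.96), Tex15 (-0.89), Adap1 (-0.87), Hcn3 (-0.87) and Arl4d (-0.86). Then came Slamf7 (-0.83), Hk2 (-0.82), Hic1 (-0.82), Xrcc6bp1 (-0.82), Zbtb32 (-0.70), Polr1b (-0.68), Scd2 (-0.68), Xcl1 (-0.65) and Podnl1 (-0.63). In the next range stood Mx1 (-0.62), Cd160 (-0.61), Abcg1 (-0.60), Tpi1 (-0.59), Cad (-0.59), Itih5 (-0.58), Eomes (-0.57), Dkc1 (-0.56) and Nr4a2 (-0.55). The middle of the order held Tbx21 (-0.53), Idi1 (-0.53), Ube2c (-0.52), Mthfd1 (-0.52), Sqle (-0.47), Gart (-0.45), Gzmb (-0.43), Fabp5 (-0.43) and Fasn (-0.43). Nearer to 0 were Nop56 (-0.42), Abca1 (-0.42), Myc (-0.41), Entpd1 (-0.41), Cycs (-0.39), Ctps (-0.39), Psmb4 (-0.38), Tfrc (-0.38) and Hmgcs1 (-0.37). Closer still were Plk1 (-0.35), Gpx1 (-0.34), Srebf1 (-0.34), Lcp2 (-0.33), Asns (-0.33), Hspd1 (-0.32), Pdia6 (-0.32), Mcm2 (-0.32) and Cyp51 (-0.30). In this range were also Pdcd1 (-0.30), Rrm2 (-0.29), Ccne1 (-0.28), Cd8b1 (-0.27), Pcna (-0.26), Il2rb (-0.25), Ldha (-0.25), Sdha (-0.21) and Cd3e (-0.20). The smallest differences past the threshold were those of Acsl4 (-0.19), Bcl2 (-0.19), Srebf2 (-0.17) and Cd8a (-0.14). Genotype and receptor makeup cannot be told apart in these differences.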

How the results depend on the processing

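The number of genes that changed with AA in KO (4973) ranged from 4428 (fitting only these 2 groups) to 5031 (DESeq2) under 7 alternatives of tool, scaling, filter and samples, and from 4341 to 4702 when 1 library was left out. The rises were 1897 to 2326 and the falls 2303 to 2592 with a library left out, and the main-direction counts of 16 gene lists moved by no more than 1.5 times in any alternative. Of the 88 other list counts, many of them small, 28 moved by more in at least 1 alternative. The difference between genotypes called 2118 to 2548 genes with 1 library left out (1075 and 1438 by direction with all libraries). By direction it called 903 to 1336 genes with a larger and 1055 to 1421 with a lower effect in KO. Which direction held more genes was not stable: upper quartile scaling gave 1296 larger and 1162 lower. AA against OA called 1698 to 2600, of which 848 to 1192 were higher and 850 to 1424 lower with AA. The lowest came without replicate 2 of KO with OA; the cause was not tested. The log2 value of Gm10800 ran from -2.985 (without untreated replicate 1) to 0.19 (without untreated replicate 4), where it reversed. Of the 166 named genes 153 kept their side of the threshold in every alternative run, and the sign of some that did not pass changed (Gstp1 from -0.03 to 0.07). Between untreated KO and KO with AA the library numbers showed no pairing over all tested genes. Deviations of same-numbered libraries correlated at 0.004, -0.032, 0.021 and 0.007, and those of differently numbered ones at -0.03 to 0.042. Pairing by number among the WT and OA libraries was not checked. A fit with the replicate block called 4829 genes for AA in KO, 2353 for the difference between genotypes and 2299 for AA against OA. The median log2 change of all genes stayed between -0.01 and 0.00 across scalings. On simulated data with the depth of these libraries, 66% of genes changed 1.2-fold were recovered and 92% of those changed 1.5-fold, so smaller changes can be missed. The changed genes, 50 per fold, were drawn only from genes with higher counts. These shares therefore do not cover genes with low counts. Far fewer genes were changed there than were called in these data.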
